A study of Mus musculus with 6 samples.

Results

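The genes described here are 4 ErbB receptors (Erbb2, Erbb3, Erbb4 and Egfr) and 6 of their ligands (Nrg1, Nrg4, Hbegf, Btc, Areg and Ereg), taken by name from the deposited table of normalized read counts. All 10 were found among its 24972 rows. The comparison is between heart cells of MX1gfp mice given 100 microlitres of phosphate-buffered saline (vehicle) into the abdomen and of MX1gfp mice given doxorubicin at 25 mg per kg in the same volume, with 3 mice in each group. Hearts were collected at 48 hours, ventricles with septum were digested with collagenase, and RNA was taken from the cells that sank under gravity, labelled primary cardiomyocytes, with no sort named. Replicate numbers are those of the mice. Mice of both groups carried the MX1gfp allele, which reports activity of the interferon-stimulated gene Mx1, and the labels state neither sex nor age. Doxorubicin is an anthracycline cancer drug that damages DNA and injures the heart.

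ErbB proteins are receptor tyrosine kinases that signal as pairs. ErbB2 binds no known ligand and is the favoured partner of the others, ErbB3 has little kinase activity of its own, ErbB4 binds neuregulins, and the EGF receptor binds the EGF-like ligands. In the heart, neuregulin-1 released by endothelial cells acts on ErbB4 and ErbB2 of cardiomyocytes, and blocking ErbB2 in patients treated with anthracyclines raises the risk of heart failure.

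Every doxorubicin library was shallower than every vehicle library, at about 3670000 to 6170000 reads against 7720000 to 11400000, an estimate from how far apart the lowest values lie, so depth and treatment cannot be told apart. Doxorubicin replicate 1 stood closer to the vehicle libraries than doxorubicin replicates 2 and 3 did, and the fits of the 10 genes are given with and without it where they were tested. As its values set that library apart, leaving it out favours larger differences and smaller p. The p-values without it are therefore given as a description and not as independent support. All 10 cardiomyocyte markers were detected in each library, their summed normalized count being 638541 to 743984 under vehicle against 552671, 188865 and 161739 in doxorubicin mice 1 to 3. Markers of other cells were present too. The summed count of 10 endothelial markers was 15321.5 to 20168 under vehicle against 26115, 23741 and 30695 in doxorubicin mice 1 to 3. For 10 fibroblast markers these sums were 14493 to 17902 against 21144, 55831 and 44878, and for 10 macrophage markers 2489 to 2727 against 4149, 6801 and 15479. Erythroid markers set doxorubicin replicate 1 apart, with a sum of 9027 over 5 genes against 249.8 to 2104 in the other 5 libraries. It also had the highest sums of 4 atrial markers (1426 against 368 to 692) and of 8 lymphocyte markers (69.1 against 10.4 to 33.4). In such bulk samples, fewer cells of a type and less RNA per cell cannot be told apart. The libraries also differed in Xist and Y-linked transcripts, with vehicle replicate 3 and doxorubicin replicates 1 and 3 in the Xist class.

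Of the 10 genes, 7 had a mean of at least 10 normalized counts over the 6 libraries and were tested with limma among 12477 genes, and Nrg4, Ereg and Areg fell below that mean. Nrg1 reached it only through the doxorubicin libraries and Btc only through the vehicle libraries. Both are described by their values alone, which leaves 5 genes with a mean of at least 10 in each group. With all libraries, 0 of the 5 passed a Benjamini-Hochberg adjusted p of 0.05 in limma, as did 0% of all genes tested, and 4 had an unadjusted p under 0.05, against 35.9% of all genes. The groups did not overlap in 1 gene that was higher after doxorubicin, against 19.2% of all genes, and in 2 that were lower, against 22.6%. Without doxorubicin replicate 1, 2 of the 5 rose (Erbb2 and Egfr) and 2 fell (Erbb3 and Erbb4) in limma, against 19.3% and 21.8% of all genes. With any other single library left out, 0 of the 5 passed.

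**Figure D1:**
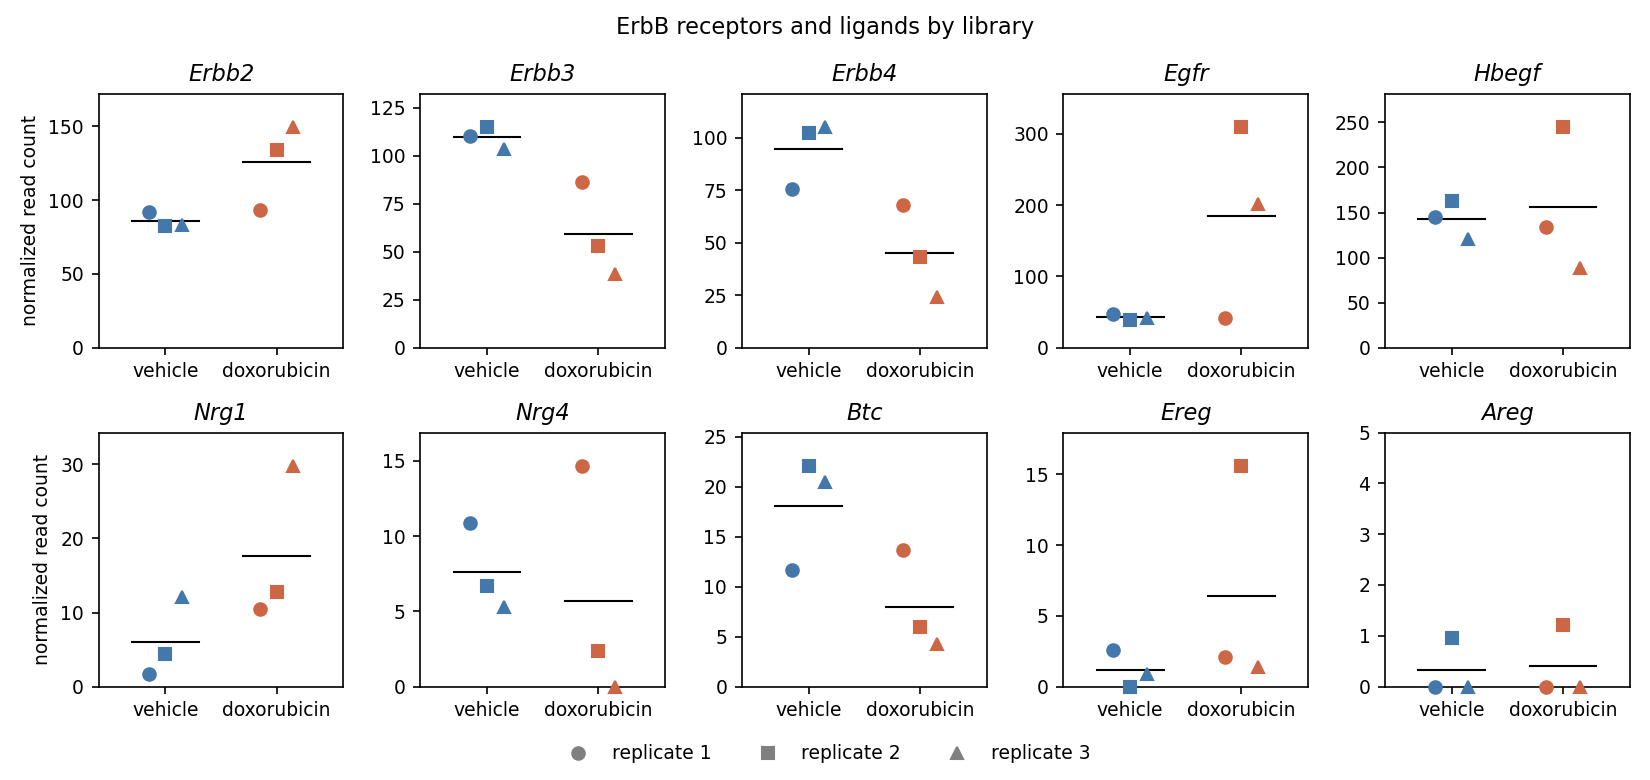
Normalized read counts (vertical axes, each starting at 0) of the 10 genes in the vehicle (blue) and doxorubicin (orange) libraries, with 1 point per library, the marker shape giving the replicate number and the line giving the group mean. Egfr was above 200 normalized counts in doxorubicin replicates 2 and 3 and between 38.6 and 47.2 in the other 4 libraries, and the lowest vehicle values of Erbb3 and Erbb4 exceeded their highest doxorubicin values.

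Among the receptors, Erbb4 was lower in every doxorubicin library than in any vehicle library. Erbb4 (chromosome 1, 68031884 to 69108576, GRCm38.p6, as all coordinates here) encodes the receptor through which neuregulins act on cardiomyocytes. It had 75.8, 102 and 105 normalized counts in vehicle mice 1 to 3 and 67.9, 43.3 and 24.2 in doxorubicin mice 1 to 3. The gap between the groups was small, since doxorubicin replicate 1 lay just under vehicle replicate 1, and replicates 2 and 3 lay far under both. The means were 94.5 ± 16.3 and 45.1 ± 21.9 (SD, n = 3 in each group). On the log2(value + 1) scale, which is used for all fold changes here, the difference was -1.15 (SE 0.37, limma adjusted p 0.0869), and without doxorubicin replicate 1 it was -1.50 (SE 0.29, adjusted p 0.00532). Beside it, the 10 cardiomyocyte markers had a median log2 fold change of -1.53, with medians of -0.43, -1.85 and -2.18 in doxorubicin mice 1 to 3, against -0.46, -1.09 and -1.91 for Erbb4. The part of those markers in the Erbb4 difference was not tested.

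Erbb3 (chromosome 10, 128567523 to 128589635), whose product signals through its partners, had the same order of doxorubicin libraries. It had 110, 115 and 103 normalized counts under vehicle, against 86.3, 53.0 and 38.3 in doxorubicin mice 1 to 3. The vehicle libraries lay close together, and all doxorubicin libraries lay below them. The means were 109.5 ± 5.86 and 59.2 ± 24.6 (SD, n = 3 in each group), and the fitted log2 difference was -0.95 (SE 0.29 and adjusted p 0.0859 by limma), and without doxorubicin replicate 1 it was -1.26 (SE 0.21, adjusted p 0.00267). ErbB3 is best known in Schwann cells, the glia of peripheral nerves. The Schwann cell marker list did not go down with Erbb3, its 8 genes summing to 195 to 247 in the vehicle libraries and to 293, 452 and 458 in doxorubicin mice 1 to 3. Sox10, a glial transcription factor in that list, was low, at 4.56 to 19.2 normalized counts over the 6 libraries.

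Erbb2 (chromosome 11, 98412484 to 98437716), the shared partner receptor, differed in the other direction and by less. Its values were 92.1, 82.2 and 83.3 normalized counts under vehicle, against 93.1, 134 and 150 in doxorubicin mice 1 to 3. Doxorubicin replicate 1 exceeded vehicle replicate 1 by about 1 normalized count, so that the groups did not overlap by a margin well inside the counting error of some 88 to 145 estimated reads. The means were 85.9 ± 5.42 and 125.6 ± 29.3 (SD, n = 3 in each group), and the fitted log2 difference was 0.52 (SE 0.21 and adjusted p 0.126 by limma), and without doxorubicin replicate 1 it was 0.72 (SE 0.17, adjusted p 0.0119). Erbb2 shares 9 exonic bases with Mien1 on the opposite strand, and the use of strand in counting is not given in the sources used here.

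Egfr (chromosome 11, 16752203 to 16913907), the receptor for EGF, TGF-alpha and HB-EGF, had the widest spread of the 4 receptors. It stood at 47.2, 38.6 and 41.6 normalized counts under vehicle and at 41.2, 309.8 and 201 in doxorubicin mice 1 to 3. Doxorubicin replicate 1 lay within the vehicle range, while replicates 2 and 3 were 7.30 and 4.73 times the vehicle mean. The means were 42.5 ± 4.38 and 184 ± 135 (SD, n = 3 in each group), and the fitted log2 difference was 1.67 (SE 0.66 and adjusted p 0.118 by limma). Without doxorubicin replicate 1 it was 2.53 (SE 0.23, adjusted p 0.000298), and without doxorubicin replicate 2 it was 1.09. Of the 10 fibroblast markers, 6 were higher in both of those libraries than in any of the other 4, and 4 (Col1a1, Col3a1, Lum and Postn) were not. Col3a1, a fibrillar collagen, had 1412 to 2268 normalized counts under vehicle, against 2220, 740 and 1184 in doxorubicin mice 1 to 3. Examples of the 6, picked after their values were seen, were Dcn (decorin, a matrix proteoglycan), with 2446 to 2905 normalized counts under vehicle, against 3113, 18072 and 11326 in doxorubicin mice 1 to 3, and Pdgfra (a growth factor receptor of fibroblasts), with 287 to 296 against 378, 1068 and 728. Over the list, 9 of 10 had a positive log2 fold change, with a median of 0.84, against a median over all genes of -0.0046. The part of fibroblast RNA in the Egfr values was not tested.

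The sequences before the RefSeq starts of Egfr and Erbb2, which were higher in the same libraries, and of Btc, which was lower in them, are shown as the promoter-side windows of genes whose values differed in opposite directions. Each is the 250 bases before the start in RefSeq's GRCm38.p6 table, read 5′ to 3′ on the gene's strand, with capitals marking matches to any of 5 motifs searched on both strands. The windows are chr11:16751953-16752202 (plus strand) for Egfr, chr11:98412234-98412483 (plus) for Erbb2 and chr5:91402995-91403244 (minus) for Btc.
Egfr: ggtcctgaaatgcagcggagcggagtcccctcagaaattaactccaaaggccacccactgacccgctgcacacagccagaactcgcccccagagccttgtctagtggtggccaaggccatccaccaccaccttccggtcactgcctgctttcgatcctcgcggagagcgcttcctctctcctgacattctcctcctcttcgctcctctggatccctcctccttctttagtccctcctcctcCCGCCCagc
Erbb2: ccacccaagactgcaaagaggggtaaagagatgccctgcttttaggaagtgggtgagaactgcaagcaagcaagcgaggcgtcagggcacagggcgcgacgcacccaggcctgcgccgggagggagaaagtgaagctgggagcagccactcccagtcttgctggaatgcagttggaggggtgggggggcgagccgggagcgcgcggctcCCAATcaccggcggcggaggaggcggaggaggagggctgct
Btc: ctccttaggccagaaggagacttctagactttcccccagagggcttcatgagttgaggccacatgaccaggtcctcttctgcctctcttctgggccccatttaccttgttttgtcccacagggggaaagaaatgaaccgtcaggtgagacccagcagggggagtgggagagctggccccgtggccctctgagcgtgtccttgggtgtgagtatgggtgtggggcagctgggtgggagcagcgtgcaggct
The motifs were GGGCGG (GC box), the CCAAT box (those 5 letters), the TATA box with letters TATAAA, the AP-1 site with letters TGACTCA and the E box with letters CACGTG, found in 32.9%, 34.5%, 12.97%, 4.43% and 6.05% of 27025 windows of the same length. Egfr held 1 GC box, on the reverse strand, that began 9 bases before the start, and Erbb2 held 1 CCAAT box that began 41 bases before it. None of the 5 was found in the Btc window. GC content was 60.8% for Egfr, 66% for Erbb2 and 59.6% for Btc, against a median of 52%, and the windows held 11, 16 and 4 CpG dinucleotides, against a median of 6. The window of Erbb4, a receptor that was also lower, is not printed. It held none of the 5 motifs, 54% GC and 12 CpG dinucleotides, so the Btc window does not stand for the genes that were lower. A match is a description of letters and not of binding.

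**Figure D2:**
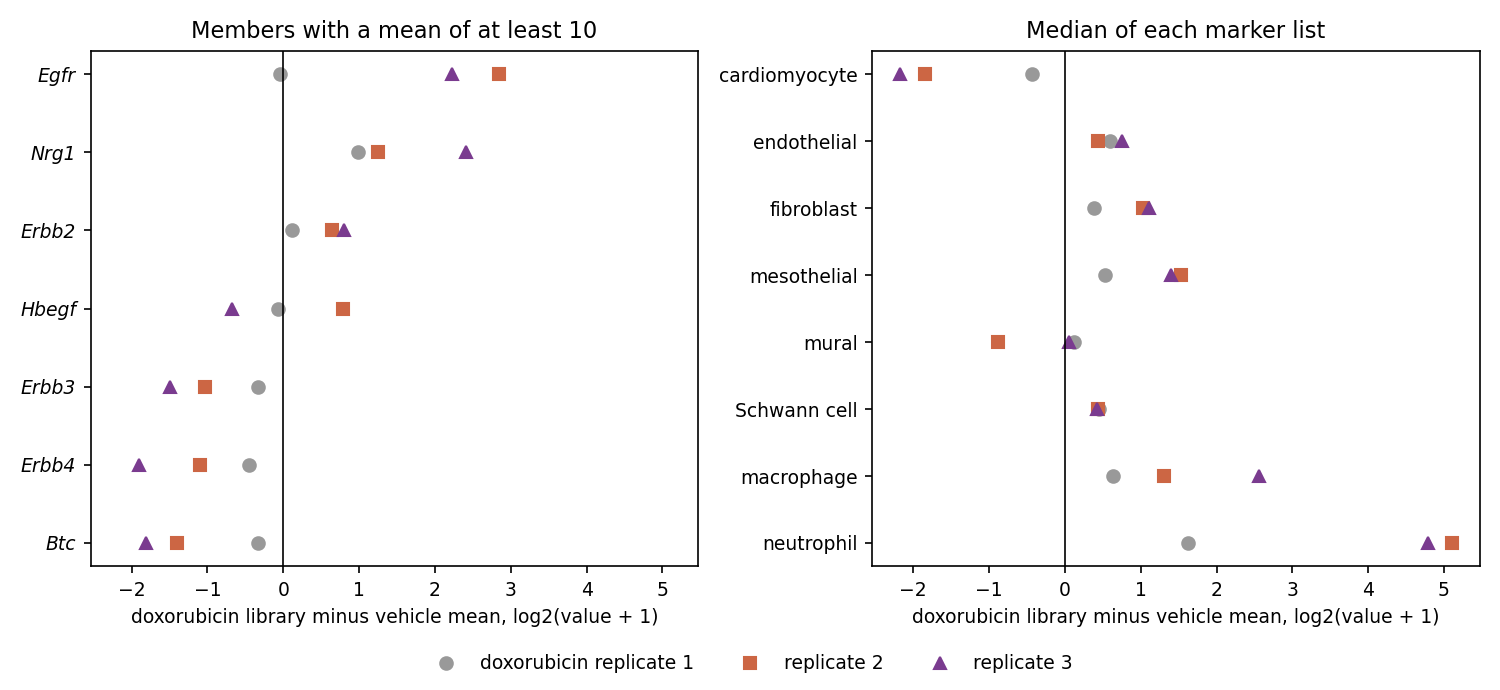
Difference of each doxorubicin library from the vehicle mean on the log2(value + 1) scale (horizontal axes), for the 7 tested genes (left) and as the median of each cell type marker list (right), with 1 symbol per doxorubicin replicate. Replicate 1 lies nearest to 0 for each of the 7 genes, and also for the cardiomyocyte, fibroblast, mesothelial, macrophage and neutrophil lists.

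Per kilobase of transcript, the make-up of the receptor transcripts differed between libraries. Using the longest coding transcript of GENCODE M21 for each gene (5.012 kb for Erbb2, 6.016 for Erbb3, 12.037 for Erbb4 and 10.208 for Egfr), the vehicle levels were 18.2 ± 0.97 normalized counts per kb for Erbb3, 17.1 ± 1.08 for Erbb2, 7.85 ± 1.35 for Erbb4 and 4.16 ± 0.43 for Egfr (SD, n = 3). Erbb3 and Erbb2 did not differ beyond their spread, and Erbb4 lay below both and above Egfr in every vehicle library. In doxorubicin replicate 1 the order was Erbb2, Erbb3, Erbb4 and Egfr, in replicate 2 it was Egfr (30.4), Erbb2 (26.7), Erbb3 (8.81) and Erbb4 (3.59), and in replicate 3 Erbb2 (29.9), Egfr (19.7), Erbb3 (6.37) and Erbb4 (2.01). Egfr made up 7.90% to 9.71% of the receptor sum per kb under vehicle, and 9.47%, 43.7% and 33.9% after doxorubicin. Erbb4 made up 13.2% to 18.8% under vehicle and 13.3%, 5.17% and 3.47% in doxorubicin mice 1 to 3. Shares of a sum are tied to each other, and which transcripts the reads came from was not measured, so the levels depend on the lengths chosen.

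**Figure D3:**
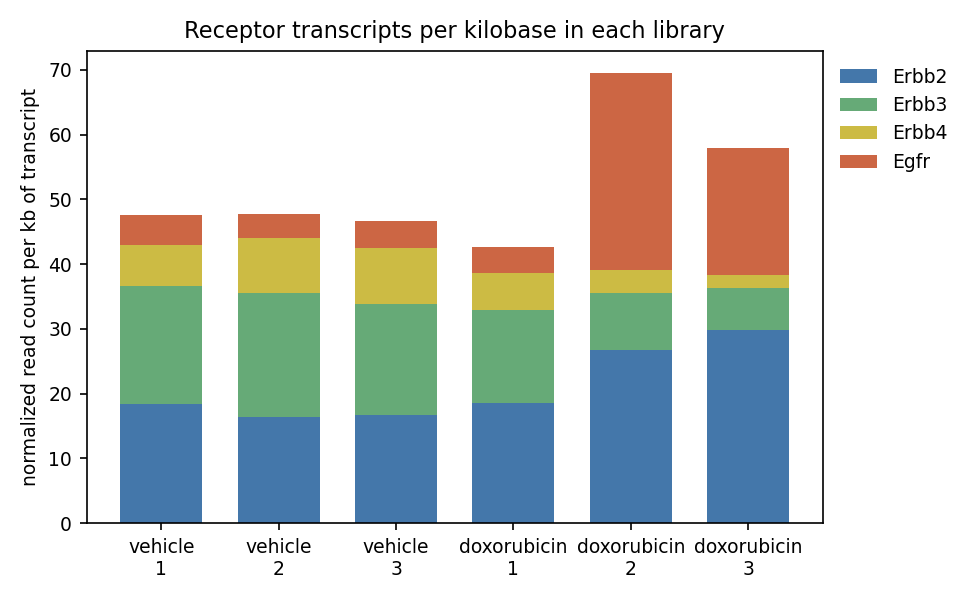
Normalized read count per kilobase of transcript (vertical axis) of the 4 receptors, stacked, in each of the 6 libraries. The Egfr part is 43.7% and 33.9% of the bar in doxorubicin replicates 2 and 3 and at most 9.71% in the other 4 libraries, and the Erbb3 and Erbb4 parts are smallest in those 2 libraries.

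Among the ligands, Hbegf had the highest level and no consistent difference. Hbegf (chromosome 18, 36504927 to 36515805) encodes heparin-binding EGF-like growth factor, a ligand of the EGF receptor and ErbB4. It had 145, 163 and 120 normalized counts under vehicle, against 134, 245 and 88.3 in doxorubicin mice 1 to 3. Doxorubicin replicate 2 was above all vehicle libraries, replicate 3 below them and replicate 1 among them. The difference of 0.012 in log2 (SE 0.35 and adjusted p 0.984 by limma) was inside the spread and changed sign with the library left out, being -0.38 without doxorubicin replicate 2 and 0.36 without replicate 3. Per kb of transcript (2.375 kb) Hbegf had 60.1 ± 9.04 normalized counts under vehicle (SD, n = 3), above each receptor and each of the other 5 ligands there.

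Nrg1 (chromosome 8, 31807452 to 32891609), the main cardiac neuregulin, was low throughout. It had 1.74, 4.35 and 12.1 normalized counts under vehicle, which rest on about 3, 5 and 14 reads, and 10.4, 12.8 and 29.8 in doxorubicin mice 1 to 3, which rest on about 10, 11 and 20. Vehicle replicate 3 lay above doxorubicin replicate 1, so the groups overlapped. The groups differed by 1.55 in log2. With 1 library left out the difference ran from 1.01 (without vehicle replicate 1) to 2.14 (without vehicle replicate 3), being 1.83 without doxorubicin replicate 1, and with a pseudocount of 8 it was 0.86. As it reached the mean of 10 only through the doxorubicin libraries, no p is given for it. Endothelial cells are the known source of cardiac Nrg1, and 9 of 10 endothelial markers had a positive log2 fold change, with a median of 0.66. Pecam1, an adhesion molecule of endothelium with a log2 fold change above that median (1.04), had 1996 to 2681 normalized counts under vehicle and 3587, 5858 and 5833 in the doxorubicin libraries. Kdr, the marker with a negative log2 fold change (-0.26), had 3448 to 4340 against 5139, 2159 and 3401. The part of endothelial RNA in the Nrg1 values was not tested. Exons of Nrg1 share 442 bases with Gm26578 on the opposite strand.

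Btc (chromosome 5, 91357261 to 91402994) encodes betacellulin, a ligand of the EGF receptor and ErbB4. Its values were 11.7, 22.1 and 20.5 normalized counts under vehicle, against 13.6, 5.98 and 4.29 in doxorubicin mice 1 to 3, or about 13, 5 and 3 reads. Doxorubicin replicate 1 was above vehicle replicate 1, and replicates 2 and 3 were below all vehicle libraries. The groups differed by -1.18 in log2, and by -1.61 without doxorubicin replicate 1. Since Btc entered the fit only through the group in which it was high, no p is given for it.

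Nrg4, Ereg and Areg were too low to test. Nrg4 (chromosome 9, 55220222 to 55283654), a neuregulin that binds ErbB4, had 10.9, 6.72 and 5.27 normalized counts under vehicle, against 14.7, 2.40 and 0 in doxorubicin mice 1 to 3. Its highest and lowest values were both in doxorubicin libraries, and a count of 0 in replicate 3 allows up to 4.43 normalized counts, the worth of 3 reads there, covering counting error only. Ereg (chromosome 5, 91074617 to 91093649), which encodes epiregulin, had 0 to 2.61 normalized counts in 5 libraries and 15.6, about 13 reads, in doxorubicin replicate 2. That library also had the highest sum of 6 neutrophil markers, at 615, against 467 in doxorubicin replicate 3, 78.2 in replicate 1 and 18.7 to 37.0 in the vehicle libraries, and their part in the Ereg value was not tested. Areg (chromosome 5, 91139599 to 91148432), which encodes amphiregulin, rested on about 2 reads over all 6 libraries. It was not detectable beyond that at this depth, and no fold is given for it. Nrg4 shares 166 exonic bases with Fbxo22, and Ereg 141 with Gm19610, in both cases on the opposite strand.

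**Figure D4:**
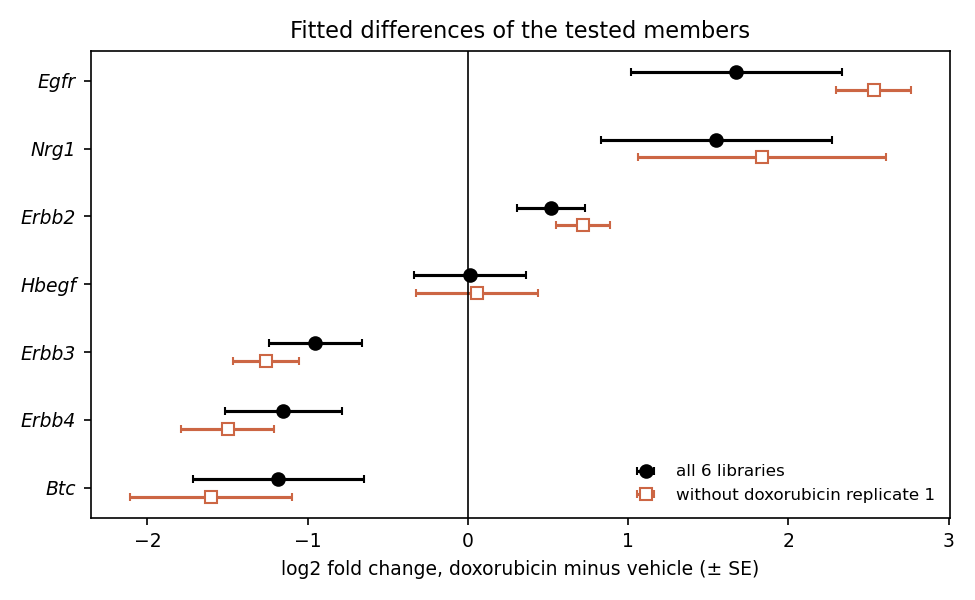
Fitted log2 fold change, doxorubicin minus vehicle (horizontal axis), with its SE, for the 7 tested genes with all 6 libraries (filled circles) and without doxorubicin replicate 1 (open squares). Leaving that library out moved Egfr from 1.67 to 2.53 and moved Erbb3, Erbb4 and Btc further below 0, and Hbegf remained near 0 at 0.012 and 0.055. Nrg1 and Btc reached the mean needed for testing in 1 group only, so their SE bars are not read as a test.

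Within the libraries of 1 Xist or Y-linked class, no test was run, and the differences of the receptors had the same direction in both classes. With the class as a covariate in limma, Erbb2, Erbb3, Erbb4 and Egfr had adjusted p of 0.158, 0.117, 0.118 and 0.113 over all 6 libraries. Erbb4 differed by -1.35 in the Xist class (1 vehicle and 2 doxorubicin libraries) and by -1.01 in the Y-linked class (2 and 1), and Erbb3 by -0.83 and -1.07. Erbb2 differed by 0.50 and 0.62, and Egfr by 1.11 and 2.83, the Xist class holding doxorubicin replicate 1. For the ligands, Btc differed by -1.29 and -1.30, Nrg1 by 0.51 and 1.85, and Hbegf by -0.14 and 0.67, so that the sign of Hbegf differed between the classes.

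Among the remaining ligands of the family, Egf and Tgfa differed in opposite directions. Egf, the founding ligand of the EGF receptor, had 49.2, 88.8 and 100.3 normalized counts under vehicle, against 48.7, 7.56 and 6.99 in doxorubicin mice 1 to 3. Doxorubicin replicate 1 lay just under vehicle replicate 1 and the other 2 far below, and the fitted log2 difference was -2.36 (SE 0.70 and adjusted p 0.0859 by limma). Tgfa, another ligand of that receptor, had 6.36, 4.81 and 7.00 normalized counts under vehicle and 22.1, 40.9 and 32.4 in the doxorubicin libraries. All 3 doxorubicin libraries, replicate 1 included, were at least 3 times the highest vehicle value, with a log2 difference of 2.19. The Tgfa means were 6.06 normalized counts under vehicle and 31.8 after doxorubicin. As with Nrg1, Tgfa reached the mean needed for testing only through the doxorubicin libraries, so no p is given for it. Without doxorubicin replicate 1, Egf was lower by 3.22 and Tgfa higher by 2.42. In that fit Egf too reached the mean needed for testing in the vehicle group only, so no p is given for either gene. Of the 5 genes in this list, which also held Epgn, Nrg2 and Nrg3, 3 were tested and 0 passed with all libraries. Nrg2, like Tgfa, reached the mean needed for testing in 1 group only, with means of 14.0 under vehicle and 8.97 after doxorubicin.

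Genes that release the ligands from the cell surface lay on both sides of 0. Of 9 tested, 5 had a positive and 4 a negative log2 fold change, with a median of 0.061 (0.36 with equal library totals, which put the median of all genes at 0.29), and 0 passed with all libraries. Without doxorubicin replicate 1, 2 rose and 2 fell, near the 19.3% and 21.8% of all genes. Adam12 (log2 fold change -0.13), counted among the 4, reached the mean needed for testing in 1 group only, with means of 9.82 under vehicle and 10.3 after doxorubicin. Furin, a protease that processes ligand precursors and the highest gene of the list, differed by 0.061 (SE 0.22, limma adjusted p 0.860). Bace1, a protease that cleaves neuregulin-1, had the smallest unadjusted p of the list, with means of 382 ± 38.5 and 249.1 ± 92.8 normalized counts (SD, n = 3 in each group; log2 fold change -0.67, adjusted p 0.108, and -0.96 without doxorubicin replicate 1).

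Adaptors and effectors below the receptors had no common direction. Of 32 tested, 14 were higher and 18 lower, with a median of -0.073 (0.23 with equal library totals) and a range from -0.78 to 0.72, and 5 of the former and 9 of the latter had groups that did not overlap, against 19.2% and 22.6% of all genes. Again 0 passed with all libraries, and 7 had an unadjusted p under 0.05, against 35.9% of all genes. Without doxorubicin replicate 1, 6 rose and 5 fell, against 19.3% and 21.8%. Map2k2, a kinase that activates ERK, had the smallest unadjusted p, with 923, 797 and 816 normalized counts under vehicle, against 681, 593 and 464 in doxorubicin mice 1 to 3 (log2 fold change -0.56, SE 0.18, limma adjusted p 0.0877). Ptpn11, a phosphatase that carries receptor signals to Ras, was the highest of the list and differed by -0.27 (SE 0.17, adjusted p 0.277).

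Genes that restrain the receptors or are induced through ERK lay mostly above 0. Of 12 receptor brakes, 11 had a positive log2 fold change, with a median of 0.37, and of 11 tested ERK feedback genes 8 did, with a median of 0.30. With equal library totals these medians were 0.67 and 0.60, beside the 0.29 of all genes, which was -0.0046 as deposited. With all libraries 0 of either list passed. An unadjusted p under 0.05 in limma was found for 4 brakes and 5 ERK feedback genes, against 35.9% of all genes. The groups did not overlap in 3 brakes that were higher and 0 lower, and in 2 ERK feedback genes that were higher and 1 lower. These shares were 19.2% and 22.6% of all genes. Without doxorubicin replicate 1, 6 receptor brakes rose and 1 fell in limma, and 4 ERK feedback genes rose and 0 fell. Of all genes, 19.3% rose and 21.8% fell in that fit. Dusp4, counted among the 4 ERK feedback genes that rose, the 5 with that p and the 2 without overlap, had means of 5.96 normalized counts under vehicle and 18.2 after doxorubicin. It reached the mean needed for testing only through the doxorubicin libraries, so its part in these counts is not used as a result. Ptpn12, a tyrosine phosphatase with the smallest unadjusted p of the brakes, had 345, 334 and 267 normalized counts under vehicle and 379, 570.1 and 581 in the doxorubicin libraries, which did not overlap (log2 fold change 0.67, SE 0.21, limma adjusted p 0.0863). Spry1, an inhibitor of receptor tyrosine kinase signalling, had 265, 308 and 211 normalized counts under vehicle, against 287, 834 and 909 in doxorubicin mice 1 to 3 (log2 fold change 1.22, SE 0.42, adjusted p 0.0962). Errfi1, whose product inhibits ErbB kinases and which was chosen after its values were seen, had 240, 182 and 134 against 193, 736 and 425 (log2 fold change 1.12, SE 0.46, adjusted p 0.127). Doxorubicin replicate 1 lay within the vehicle range for both Spry1 and Errfi1. Lrig1 and Phlda1, also chosen after their values were seen, went the other way. Lrig1, the brake that fell without doxorubicin replicate 1, had 297, 294 and 392 against 309, 207 and 169 (log2 fold change -0.55, limma adjusted p 0.148). Phlda1, an ERK feedback gene, had 221, 289 and 226 against 172, 181 and 196, with no overlap (log2 fold change -0.41, limma adjusted p 0.115).

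**Figure D5:**
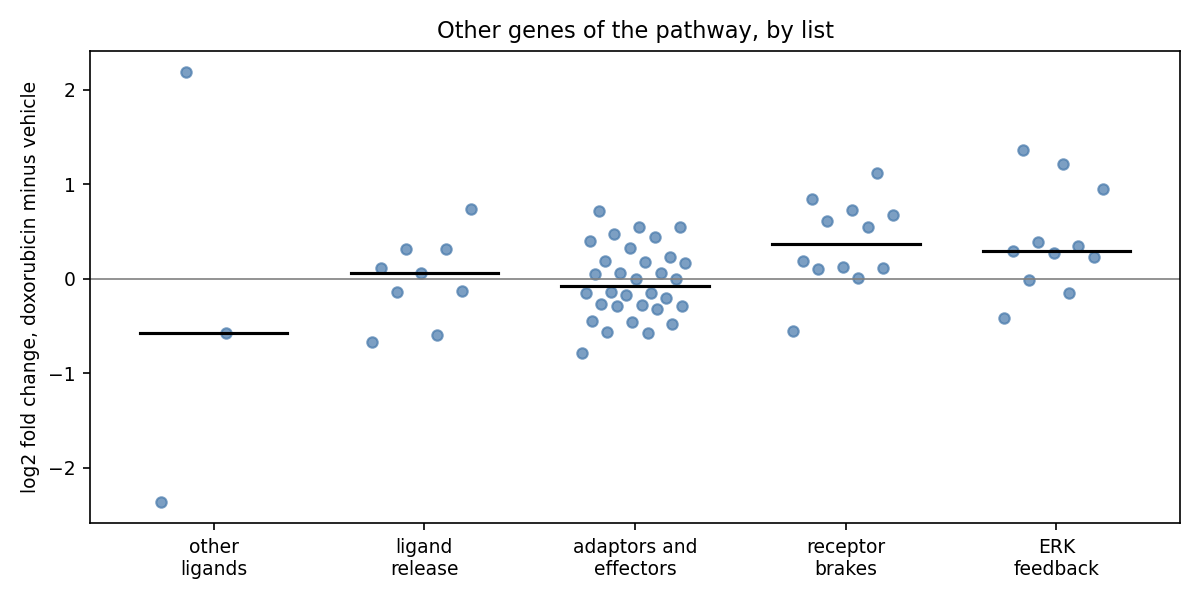
Log2 fold change, doxorubicin minus vehicle with all 6 libraries (vertical axis), of each tested gene of 5 pathway lists (points, spread sideways only for display), with the list median as a line. The medians were 0.061 for ligand release, -0.073 for adaptors and effectors, 0.37 for receptor brakes and 0.30 for ERK feedback, and no single gene passed the threshold. For other ligands the line, at -0.57, is the value of Nrg2, 1 of 3 tested genes. Nrg2, like Tgfa, reached the mean needed for testing in 1 group only.

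Across the 6 libraries, the genes most like each receptor on the log2 scale were chosen from those with a mean of at least 100, as a description with no test. The libraries share depth and treatment, and between 349 and 1016 of 7979 or 7980 genes had a Pearson correlation above 0.95 with a given receptor, so a high value marks no single gene out. For Erbb4 they were Fam160a1 and Tmem63b (r of 0.999 for both), and for Erbb3 Crls1 and Gstk1 (r of 0.999 for both). For Egfr they were Ms4a4d (0.998) and Cep170 (0.997), Ms4a4d having 58.8 to 68.3 normalized counts under vehicle, against 70.0, 474 and 293 in doxorubicin mice 1 to 3. For Erbb2 they were Tram1 (0.998) and Apobec3 (0.996).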

How the data were processed

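RNA was measured in 6 libraries of heart cells, grouped and numbered by their sample titles. Per the series description, reads were aligned to mm10 with RefSeq genes in the BaseSpace RNAseq Alignment application (version 2.0.2), followed by RNA-seq Differential Expression (version 1.0.1). STAR 2.6.1a and Salmon are named in the submitters' processing notes. How the values were normalized, whether strand was used and what was filtered is not given in the sources used here. Each deposited column is the signal of 1 library, as normalized read counts by gene. Between 79.9% and 92.6% of low values lay within 0.1 of a whole multiple of the worth of 1 read, too few for tests on counts.

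Values were used as deposited. After log2(value + 1), every gene averaging 10 or more across the 6 libraries entered limma 3.58.1 (R 4.3.3), with a mean-dependent prior variance, two-sided, adjusted over all 12477 genes by the Benjamini-Hochberg method. The fit was tested on simulated data in which all genes and both groups had the same spread and no library deviated. That test therefore does not cover a library that stands apart, as doxorubicin replicate 1 does here. The members and lists were chosen with earlier results of these data known. The text names all members, the highest gene and the one with the smallest unadjusted p of each pathway list (1 of these is not reported here), and the 2 genes most correlated with each receptor. Markers were described as lists. The smallest p an exact permutation test of 3 against 3 libraries allows is 0.1, so none was run. Coordinates and promoter windows came from RefSeq's GRCm38.p6 tables, the assembly that mm10 denotes, and count from 1. Transcript lengths came from GENCODE M21. Protein sequences were not used here. The alternatives were other pseudocounts (0.5, 8), filters, scalings, variance models, library weights, a replicate block, an Xist class covariate, a threshold of 0.10 and each library left out in turn.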

Additional observations from a re-analysis of the deposited data

How the results depend on the processing

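With all 6 libraries, 0 genes passed in either direction when the pseudocount was 0.5 or 8, the filter was dropped or set to a mean of 50, totals were made equal, quantiles were matched, the trend was dropped, or the replicate block or class covariate was added. A threshold of 0.10 gave 1383 higher and 1639 lower. With library weights from limma, 0.277 for doxorubicin replicate 1, there were 1954 and 2318. Leaving out 1 library in turn gave 0 to 2409 higher and 0 to 2718 lower, the highest numbers without doxorubicin replicate 1, 1 lower without doxorubicin replicate 2 and 0 otherwise.

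Over those leave-one-out fits Erbb2 ran from 0.38 to 0.72, Erbb3 from -1.26 to -0.69, Erbb4 from -1.50 to -0.77, Egfr from 1.09 to 2.53, Btc from -1.61 to -0.87, Nrg1 from 1.01 to 2.14 and Hbegf from -0.38 to 0.36. Erbb2, Erbb3, Erbb4 and Egfr passed 0.05 only without doxorubicin replicate 1 and with library weights (0.61, -1.05, -1.23 and 2.30, adjusted p 0.0297, 0.00805, 0.0116 and 0.00521). The cause was not tested. A pseudocount of 8 gave 0.86 for Nrg1. Btc and Nrg1 reached the filter through 1 group only, and their p-values are not used. Hbegf was reversed with quantile normalization (-0.031), without vehicle replicate 3 (-0.11) and without doxorubicin replicate 2 (-0.38), and differed by -0.14 in the Xist class and 0.67 in the Y-linked class. The direction of Erbb2, Erbb3, Erbb4 and Egfr was kept under every alternative run. With equal totals the median of all genes was 0.29. Erbb2, Erbb3, Erbb4, Egfr and Hbegf then differed by 0.82, -0.66, -0.86, 1.97 and 0.31. Their limma adjusted p were 0.0743, 0.104, 0.0973, 0.0844 and 0.484. In that setting the median of adaptors and effectors became 0.23 rather than -0.073. The medians of ligand release, receptor brakes and ERK feedback were then 0.36, 0.67 and 0.60. For the 3 tested other ligands the median was -0.29 with equal totals. With a filter at a mean of at least 50 it was -2.36, the value of Egf. Leaving out 1 library gave -0.13 to 0.011 for adaptors and effectors, the latter without vehicle replicate 3. Within the mean of at least 50, Btc and Nrg1 were not tested.

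With the replicate block, Erbb2, Erbb3, Erbb4 and Egfr had adjusted p of 0.206, 0.115, 0.126 and 0.129, and 0 genes were called. Same-numbered libraries did not deviate together (correlations of -0.128, 0.0331 and -0.0928 for numbers 1 to 3), so the numbers are not taken to pair mice. Depth limits Nrg1, Nrg4, Btc, Ereg and Areg most, at about 2 to 85 estimated reads over all libraries.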
